A study of Mus musculus with 8 samples.

Results

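The genes described here are Spp1, Gpnmb, Trem2, Tyrobp, Lgals3, Fabp4, Fabp5, Lpl, Plin2 and Syngr1, a panel of 10 genes that are known markers of lipid-associated macrophages. They were taken by symbol from the 23469 genes of the deposited expression table, and all 10 were found. The panel was chosen by the measured difference between the 2 macrophage groups of the study, with earlier results of these data known, so the comparison between the groups is given for them as a description without a test. The study sequenced macrophages from the bloody malignant ascites of female C57BL/6 mice of the Ms4a3TdT (Ms4a3Cre-RosaTdT) strain, in which Cre is driven by Ms4a3 and tdTomato therefore stays on in cells that descend from granulocyte-monocyte progenitors. ID8 cells, a tumor line from mouse ovarian surface epithelium, had been placed in the peritoneal cavity at 4 to 5 weeks of age, and the ascites was taken 65 days later. All mice carried the reporter and the tumor, and the labels give no drug treatment. The sort kept live CD45+ cells that carried F4/80 and CD11b and left out cells with Ly6G, Siglec F or Ly6C on their surface, and the kept cells were split by tdTomato into AeEM (tdTomato negative, embryonic derived macrophages in ascites) and AeMM (tdTomato positive, monocyte derived macrophages in ascites), with 4 Smart-seq2 libraries each. The AeEM group rests on the absence of a signal, so a monocyte-derived cell in which Cre had not acted would be counted in it.

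Lipid-associated macrophages form where lipid is plentiful, such as obese fat tissue, atherosclerotic plaque and tumors. TREM2 is a surface receptor that binds lipids and lipoproteins and signals through the adaptor DAP12, the product of Tyrobp, and its engagement is known to switch on genes for lipid uptake, storage and lysosomal breakdown. The panel covers this program from outside to inside. It holds a secreted ligand, osteopontin (Spp1), the receptor and its adaptor, a glycoprotein of the lysosomal and plasma membrane (Gpnmb) and a lectin of damaged lysosomes (galectin-3, Lgals3). It also holds the enzyme that frees fatty acids from lipoproteins (Lpl), 2 carriers of fatty acids in the cytosol (Fabp4 and Fabp5), the coat protein of lipid droplets (Plin2) and a vesicle membrane protein (Syngr1).

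The 10 genes lie on 9 chromosomes of mm10 in the GENCODE M21 annotation. Spp1 is at chr5:104435118-104441050, Gpnmb at chr6:49036546-49070929, Trem2 at chr17:48346401-48354147, Tyrobp at chr7:30413760-30417585 and Lgals3 at chr14:47367751-47386160. Fabp5, at chr3:10012548-10016607, and Fabp4, at chr3:10204088-10208576, lie 187 kb apart on opposite strands. Lpl is at chr8:68880491-68907448, Plin2 at chr4:86648386-86670060 and Syngr1 at chr15:80091334-80119501. All are protein coding.

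Start-site windows of RefSeq (GRCm38.p6) were held for 6 of the 10 genes (Spp1, Gpnmb, Trem2, Lgals3, Plin2 and Syngr1), 7 windows in all because Spp1 has 2 start sites. The 250 bases before the start are shown for Spp1 and Syngr1, the genes of the panel with the largest differences between the groups, and for Trem2, the lipid receptor of the program. Each is read 5′ to 3′ on the plus strand, on which all 3 genes lie, and capitals mark every match to the motifs searched.
Spp1, chr5:104434861-104435110: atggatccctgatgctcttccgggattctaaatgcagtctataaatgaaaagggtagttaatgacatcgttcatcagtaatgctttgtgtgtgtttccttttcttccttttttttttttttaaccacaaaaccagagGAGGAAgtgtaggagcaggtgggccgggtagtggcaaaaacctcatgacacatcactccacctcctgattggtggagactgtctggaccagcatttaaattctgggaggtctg
Syngr1, chr15:80091084-80091333: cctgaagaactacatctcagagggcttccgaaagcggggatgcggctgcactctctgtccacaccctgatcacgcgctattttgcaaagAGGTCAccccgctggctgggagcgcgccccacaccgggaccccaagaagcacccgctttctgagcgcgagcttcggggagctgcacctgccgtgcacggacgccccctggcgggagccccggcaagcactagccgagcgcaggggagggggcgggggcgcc
Trem2, chr17:48346151-48346400: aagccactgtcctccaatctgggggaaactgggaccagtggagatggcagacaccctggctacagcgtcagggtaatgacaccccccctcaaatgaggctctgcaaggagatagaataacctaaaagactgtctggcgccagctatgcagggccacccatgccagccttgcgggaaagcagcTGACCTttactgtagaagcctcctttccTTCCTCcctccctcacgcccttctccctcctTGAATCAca
The motifs were the nuclear receptor core site AGGTCA, the lysosomal E-box TCACGTG, the M-box TCATGTG, the AP-1 site TGANTCA and the PU.1 core GAGGAA, each on both strands. AGGTCA was found in 3 of the 7 windows, and 14.0% of the 32851 windows of the same length in the RefSeq table held it. In Syngr1 its match begins 161 bases before the start, in Trem2 it lies on the other strand 68 bases before the start, and in Plin2 on the other strand 218 bases before it. GAGGAA was found in 2 windows (23.3% of all windows), at 113 bases before the start of Spp1 and, on the other strand, at 40 bases before that of Trem2. TGANTCA, which reads the same on both strands, was found in the Trem2 window alone (6.75% of all windows), 9 bases before the start. TCACGTG (3.13% of all windows) and TCATGTG (3.25%) were in none of the 7 windows, and the windows of Gpnmb and Lgals3 and the second window of Spp1 held none of the 5 motifs. No match overlapped another, and the matches are letters in these windows and no evidence of binding.

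Expression is given as log2(TPM + 1), and TPM (transcripts scaled to a fixed total per library) is a level per transcript length that can be compared between genes. The back-transformed TPM summed to 958862 to 974303 per library, and the number of reads behind a library is unknown here. The deposited table had been leveled between sets of libraries, so that a gene's mean hardly differs from set to set. There are 3 such sets, the libraries of replicate 1, those of replicate 2 and, as a single set, those of replicates 3 and 4. The AeEM and AeMM libraries of replicate 1 therefore mirror each other around the gene's mean, as do those of replicate 2, and the difference within each set is given beside the difference over all libraries. The libraries came from 4 mice and 4 runs, fewer mice than libraries, so some libraries share a mouse. Which of them do is not given in the sources used here, and errors and p-values measure the spread between these libraries as leveled. The leveling removed differences between sets beforehand. An unpaired fit does not count this, so its errors and p-values can be too small. A fit with the 3 sets as a term does count it. In bulk RNA, more cells that express a gene and more RNA of it per cell cannot be told apart.

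The 10 genes did not all differ in the same direction. Spp1 and Syngr1 were lower in AeEM, by 1.67 ± 0.18 (SE) and 1.10 ± 0.14 on the log2 scale, Lgals3 was higher by 0.42 ± 0.07, and Trem2 and Lpl differed by less than 0.10. All 10 passed the filter of at least 1 TPM on average, as did 8801 genes of the table, and 4 had a higher and 6 a lower mean in AeEM. In the unpaired limma fit over these 8801 genes with a Benjamini-Hochberg adjusted p under 0.05, 3 of the 10 lay past the threshold, Lgals3 among the genes higher in AeEM and Spp1 and Syngr1 among the lower. The same threshold was passed by 2.41% of all genes tested, 1.25% higher and 1.16% lower in AeEM, and nothing is read from the count of the panel because the same contrast chose it. With the 3 sets as a term in the fit, Spp1 alone of the panel was past the threshold, beside 0.159% of all genes (0.102% higher and 0.0568% lower). The ranges of the groups did not overlap for 5 of the 10 genes, Lgals3 higher in AeEM and Spp1, Syngr1, Gpnmb and Tyrobp lower, against 12.2% of all genes tested (5.72% higher and 6.53% lower). The median difference of the panel was -0.05 and that of all genes tested -0.0064, while the median size of the difference, sign aside, was 0.28 in the panel and 0.16 in all genes.

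**Figure D1:**
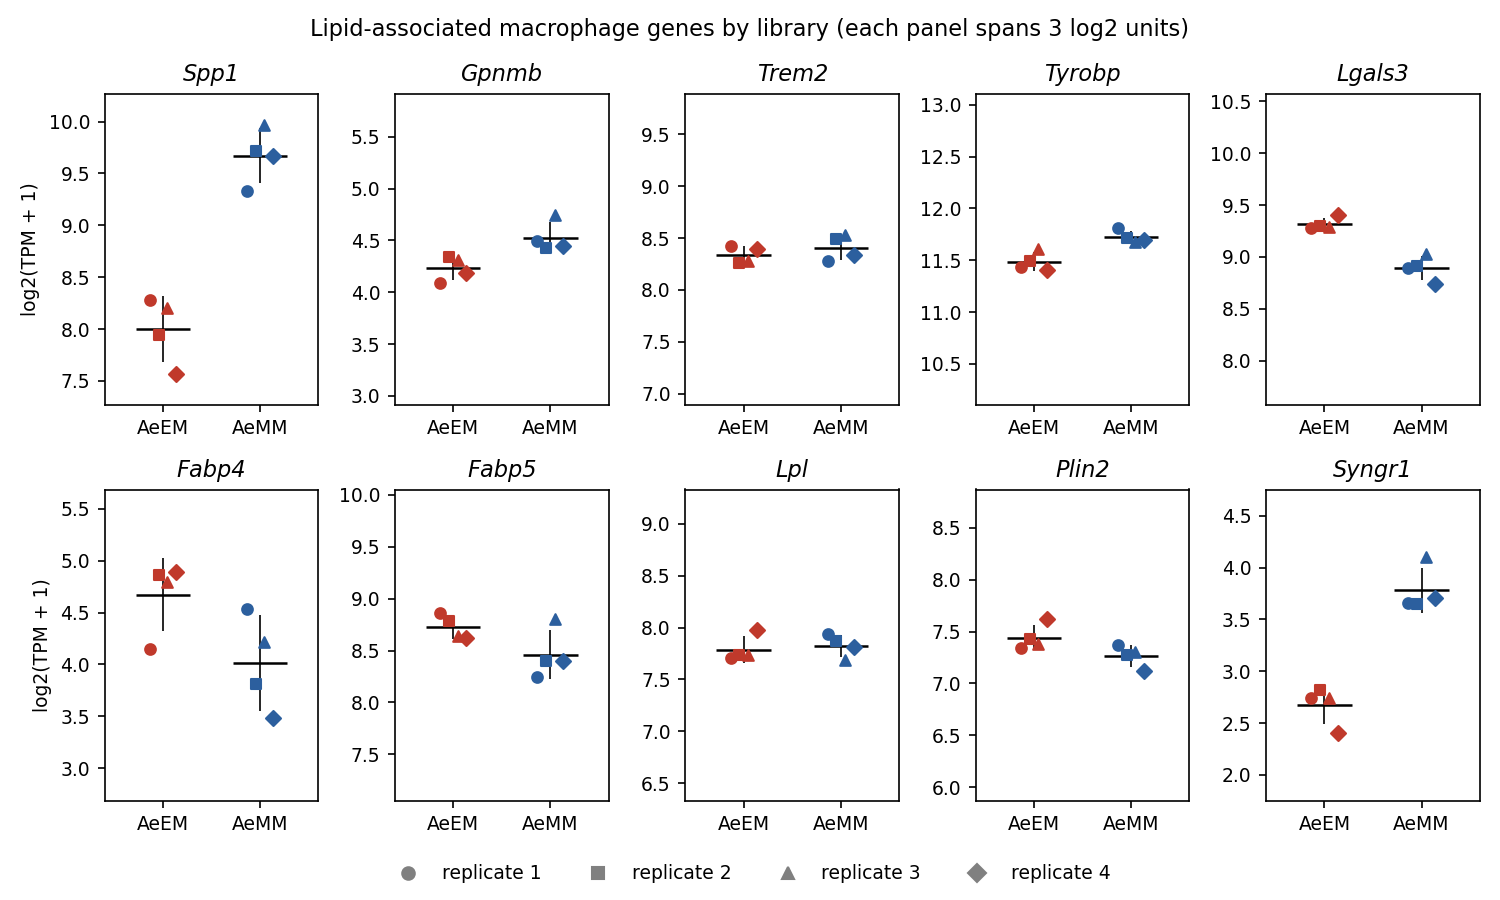
Level of each of the 10 genes in the 8 libraries, as log2(TPM + 1) on the vertical axis, with every panel spanning the same height of 3 log2 units. Points are libraries, with a marker shape for each replicate number, the horizontal bar is the mean and the vertical line the SD of the 4 libraries. Spp1 and Syngr1 show the widest gaps between AeEM and AeMM, while the points of Trem2 and Lpl overlap between the groups.

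Summed over its genes, the panel held 4812 to 5179 TPM in AeEM, which was 0.498% to 0.532% of each library, and 5626 to 6035 TPM in AeMM, 0.580% to 0.629%. Tyrobp alone gave 2718 to 3124 of this in AeEM and 3275 to 3580 in AeMM. Spp1 gave 189 to 309 TPM in AeEM and 641 to 1003 TPM in AeMM. Neither the sums nor these 2 genes overlapped between the groups. Both genes were lower in AeEM, while Lgals3 (620 to 678 TPM against 428 to 522 TPM in AeMM), Fabp4, Fabp5 and Plin2 had higher means there. The sum therefore does not describe the panel gene by gene. Nothing is read from it, because the same contrast chose the panel.

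In level, Tyrobp led the panel in both groups and Syngr1 closed it. In AeEM the order by mean was Tyrobp, Lgals3, Fabp5, Trem2, Spp1, Lpl, Plin2, Fabp4, Gpnmb and Syngr1. The libraries of neighbors in this order overlapped for Trem2 and Spp1, for Spp1 and Lpl and for Fabp4 and Gpnmb, and Spp1 also overlapped Plin2. In AeMM the order was Tyrobp, Spp1, Lgals3, Fabp5, Trem2, Lpl, Plin2, Gpnmb, Fabp4 and Syngr1, with overlaps for Lgals3 and Fabp5, for Fabp5 and Trem2, for Gpnmb and Fabp4 and for Fabp4 and Syngr1. Spp1 thus stood at place 5 of the panel in AeEM and at place 2 in AeMM, where it was above Lgals3 without overlap, and Lgals3 and Fabp5 were separate in AeEM but not in AeMM. Among all 8801 genes tested, ordered by mean level, Tyrobp was at rank 35, Lgals3 at 119, Spp1 at 122 and Syngr1 at 3398.

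Spp1 encodes osteopontin, a secreted phosphoprotein that binds integrins and CD44 and is a widely used marker of tumor macrophages. Its level was 8.28, 7.95, 8.20 and 7.57 in AeEM replicates 1 to 4 and 9.33, 9.72, 9.97 and 9.67 in the AeMM replicates. Every AeMM library was above every AeEM library, and the gap between the highest AeEM and the lowest AeMM library lay within replicate 1. The means were 8.0 ± 0.32 (SD, n = 4) and 9.67 ± 0.26, a 3.19-fold lower level in AeEM on the log2(TPM + 1) scale. AeEM was lower in each set, by 1.05 in replicate 1, by 1.77 in replicate 2 and by 1.93 over replicates 3 and 4. Spp1 ranked 19 of the 8801 genes by the size of its difference. Epithelial tumor cells and mesothelium, which lack CD45 and would be removed by the sort, can also make osteopontin, and their markers are therefore given beside it. Genes of epithelial and mesothelial cells (Krt7, Krt8, Krt18, Krt19, Epcam, Msln, Upk3b, Wt1 and Muc16) summed to 3.90 to 6.97 TPM in AeEM and to 4.29 to 6.59 TPM in AeMM, with Muc16 under 0.1 TPM. Krt8, Krt18, Krt19, Epcam, Msln, Upk3b and Wt1 each had the same value in all libraries of replicates 3 and 4. Such values may stem from the adjustment between sets and not from measured RNA. The ranges of the sums overlapped between the groups, and the part of such cells in the level of Spp1 was not tested.

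The receptors of osteopontin did not show a difference that passed the test. Of 9 receptor genes, 6 were tested, 0 passed in either direction (1 had an unadjusted p under 0.05), and their median difference was -0.15, with 4 of the 6 tested below 0. Cd44, the hyaluronan and osteopontin receptor, was at 4.52 ± 0.10 in AeEM and 4.70 ± 0.10 in AeMM (limma adjusted p = 0.32), and Itgb1, the common integrin beta chain, at 4.80 ± 0.08 and 4.77 ± 0.05 (adjusted p = 0.879). Each of these receptors stood well below Spp1 itself in both groups.

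Trem2, the lipid-sensing receptor, was at nearly the same level in both groups. Its level was 8.43, 8.26, 8.28 and 8.40 in AeEM and 8.28, 8.49, 8.53 and 8.34 in AeMM. The libraries overlapped, and the sign of the difference was not the same in the 3 sets, at 0.15 in replicate 1, -0.23 in replicate 2 and -0.09 over replicates 3 and 4. The means were 8.34 ± 0.08 and 8.41 ± 0.12 (SD, n = 4), a difference of -0.07 ± 0.07 (SE).

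Tyrobp encodes DAP12, the adaptor that carries the signal of TREM2 and of several other receptors of myeloid and NK cells. It was the most abundant gene of the panel, at 11.44, 11.49, 11.61 and 11.41 in AeEM and 11.81, 11.71, 11.68 and 11.70 in AeMM. Every AeEM library was below every AeMM library, although AeEM replicate 3 and AeMM replicate 3 differed by only 0.07. The means were 11.49 ± 0.09 and 11.72 ± 0.06, so Tyrobp was 1.18-fold lower in AeEM, and AeEM was lower in each set, by 0.37, by 0.22 and by 0.18. After quantile scaling the difference of Tyrobp was -0.40 in place of -0.24. Trem2 amounted to 9.89% to 12.4% of the TPM of Tyrobp in AeEM and to 8.65% to 11.2% in AeMM, ranges that overlap.

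Around this receptor and adaptor, 2 of 13 tested genes of the TREM family and of DAP12 signaling passed the test, both lower in AeEM, and 0 passed with the 3 sets as a term (2 at an unadjusted p). Hcst, which encodes the related adaptor DAP10, lies 126 bases from Tyrobp on the opposite strand, at chr7:30417712-30419854. It was at 5.01, 4.94, 4.93 and 5.07 in AeEM and at 5.69, 5.74, 5.83 and 5.53 in AeMM, with no overlap. Hcst fell by 0.71 ± 0.08 in AeEM (limma adjusted p = 0.00394; 0.0695 with the 3 sets), beside the -0.24 of Tyrobp. Treml2, a TREM-like receptor gene 33.9 kb from Trem2 at chr17:48299498-48312533, was at 3.43, 3.46, 3.26 and 3.41 in AeEM and at 3.87, 3.88, 3.79 and 4.22 in AeMM. Treml2 fell by 0.55 ± 0.11 (adjusted p = 0.0435; 0.298 with the 3 sets). The highest other gene of the list, Ptpn6, which encodes the phosphatase SHP-1 that dampens such signals, was at 6.03 ± 0.12 and 5.74 ± 0.20 (adjusted p = 0.199). The list had 17 genes, 11 of the 13 tested did not pass, and its median difference was -0.10.

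Gpnmb encodes a transmembrane glycoprotein of lysosomes and the cell surface that accumulates in lipid-laden macrophages. It was a low gene of the panel, at 4.09, 4.34, 4.31 and 4.18 in AeEM and 4.49, 4.43, 4.74 and 4.45 in AeMM. The groups did not overlap, but AeEM replicate 2 came within 0.09 of AeMM replicate 2. The means were 4.23 ± 0.11 and 4.53 ± 0.15 (SD, n = 4), or 16 to 19.2 TPM and 20.5 to 25.8 TPM, a 1.23-fold lower level in AeEM. The difference was -0.40 in replicate 1, -0.09 in replicate 2 and -0.35 over replicates 3 and 4.

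Lgals3 encodes galectin-3, which binds sugars exposed on damaged lysosomes and is secreted by macrophages, and it went the other way from Spp1. Its level was 9.28, 9.30, 9.29 and 9.41 in AeEM and 8.89, 8.91, 9.03 and 8.74 in AeMM. Every AeEM library was above every AeMM library, and the AeEM libraries lay close together apart from replicate 4. The means were 9.32 ± 0.06 and 8.89 ± 0.12, a 1.34-fold higher level in AeEM, and the differences in the 3 sets were alike at 0.39, 0.39 and 0.46. Lgals3 was not past the threshold when replicate 1 or 2 of either group was left out, although the difference stayed between 0.42 and 0.44 in those 4 fits. Of the other galectins, 3 of 7 were tested and 0 passed, also at an unadjusted p. Lgals1, the most abundant of them, was at 8.98 ± 0.13 in AeEM and 9.15 ± 0.11 in AeMM (limma adjusted p = 0.304), and Lgals9 at 6.64 ± 0.12 and 6.60 ± 0.10 (adjusted p = 0.88).

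The 2 fatty acid-binding proteins of the panel, which carry fatty acids through the cytosol, both had a higher mean in AeEM with overlapping libraries. Fabp4 was at 4.14, 4.86, 4.80 and 4.89 in AeEM and 4.54, 3.81, 4.22 and 3.48 in AeMM. AeEM replicate 1 stood below the other AeEM libraries and inside the range of AeMM, so that the difference was -0.39 in replicate 1 against 1.05 in replicate 2 and 0.99 over replicates 3 and 4. The means were 4.67 ± 0.35 and 4.01 ± 0.46, a difference of 0.66 ± 0.25 (SE) with the widest error of the panel. Fabp5 was far more abundant, at 8.86, 8.79, 8.64 and 8.62 in AeEM and 8.24, 8.40, 8.80 and 8.40 in AeMM. AeMM replicate 3 lay among the AeEM libraries, and the differences in the sets were 0.62, 0.38 and 0.03. The means of Fabp5 were 8.73 ± 0.12 and 8.46 ± 0.24, a difference of 0.27 ± 0.12. The TPM of Fabp5 was 13.7 to 27.8 times that of Fabp4 in AeEM and 13.6 to 33.0 times in AeMM. The annotation also holds a pseudogene copy of Fabp5, and how the counting shared reads between them is not given in the sources used here.

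Fabp4, Lpl and Plin2 are also genes of fat cells, which lack CD45. Adipoq was at 0.108 to 0.431 TPM in AeEM and at 0 to 0.109 TPM in AeMM, and Lep and Cidec stayed under 0.1 TPM. In all libraries of replicates 3 and 4, Adipoq had the same value, 0.148 on the log2 scale. Such a value may stem from the adjustment between sets and not from measured RNA. The 4 fat cell genes in the table summed to 0.165 to 0.597 TPM in AeEM and to 0.00151 to 0.165 TPM in AeMM, and their part in the levels of the panel was not tested. Fabp4 itself was at 16.7 to 28.6 TPM and 10.2 to 22.2 TPM. Of the other fatty acid-binding proteins, 2 of 8 were tested and 0 passed, also at an unadjusted p. Fabp7 was at 3.48 ± 0.31 in AeEM and 3.61 ± 0.14 in AeMM (limma adjusted p = 0.727), and Fabp3 at 2.21 ± 0.43 and 2.54 ± 0.25 (adjusted p = 0.491).

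Lpl encodes lipoprotein lipase, which splits the triglycerides of lipoproteins, and its level barely differed between the groups. It was at 7.70, 7.74, 7.74 and 7.98 in AeEM and at 7.94, 7.87, 7.69 and 7.81 in AeMM. AeEM replicate 4 was the highest and AeMM replicate 3 the lowest of all 8 libraries. The means were 7.79 ± 0.13 and 7.83 ± 0.11 (SD, n = 4), and the differences in the sets were -0.23, -0.13 and 0.11.

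Apoc2 encodes the cofactor that lipoprotein lipase needs. It was at 6.88, 6.82, 6.96 and 7.12 in AeEM and 7.87, 7.89, 7.68 and 7.63 in AeMM, with no overlap. Apoc2 fell by 0.82 ± 0.09 in AeEM (limma adjusted p = 0.00327; 0.0501 with a term for the 3 sets), and it was lower in each set, by 0.99, by 1.07 and by 0.62, while the enzyme itself differed by -0.04. It was the only one of 8 tested genes to pass in a list of 16 partners of the enzyme and lipoprotein receptors, whose median difference was -0.08. Cd36, the fatty acid and oxidized lipoprotein receptor, was at 5.92 ± 0.05 in AeEM and 6.03 ± 0.12 in AeMM (adjusted p = 0.484).

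Plin2 encodes perilipin 2, which coats lipid droplets in macrophages. It was at 7.34, 7.43, 7.38 and 7.62 in AeEM and 7.37, 7.28, 7.30 and 7.12 in AeMM. The libraries overlapped at replicate 1, where the difference was -0.03, while it was 0.15 in replicate 2 and 0.29 over replicates 3 and 4. The means were 7.44 ± 0.12 and 7.27 ± 0.11, a difference of 0.18 ± 0.08 (SE). Of 23 genes of lipid droplet proteins and enzymes, 11 were tested, 0 passed (1 at an unadjusted p under 0.05), and the median difference was -0.05. Hilpda, an inhibitor of droplet lipolysis, was at 5.39 ± 0.34 in AeEM and 5.65 ± 0.35 in AeMM (limma adjusted p = 0.576), and Bscl2, which encodes seipin, at 5.34 ± 0.14 and 5.35 ± 0.08 (adjusted p = 0.949).

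Syngr1 encodes synaptogyrin 1, a vesicle membrane protein studied mostly in neurons. It was the lowest gene of the panel, at 2.75, 2.82, 2.75 and 2.40 in AeEM and 3.66, 3.64, 4.10 and 3.71 in AeMM. Every AeMM library was above every AeEM library, and AeMM replicate 3 was the highest. The means were 2.68 ± 0.19 and 3.78 ± 0.22 (SD, n = 4), or 4.29 to 6.05 TPM against 11.5 to 16.2 TPM, a 2.15-fold lower level in AeEM on the log2(TPM + 1) scale. AeEM was lower in each set, by 0.91, by 0.83 and by 1.33. With a smaller pseudocount of 0.1 the difference was -1.22, and with 5 it was -0.77. Syngr2, the more widely expressed relative, had the opposite sign, at 8.06 ± 0.20 in AeEM and 7.75 ± 0.19 in AeMM with overlapping libraries (limma adjusted p = 0.224). It was the only gene tested in a list of 4 relatives of Syngr1 and Gpnmb.

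**Figure D2:**
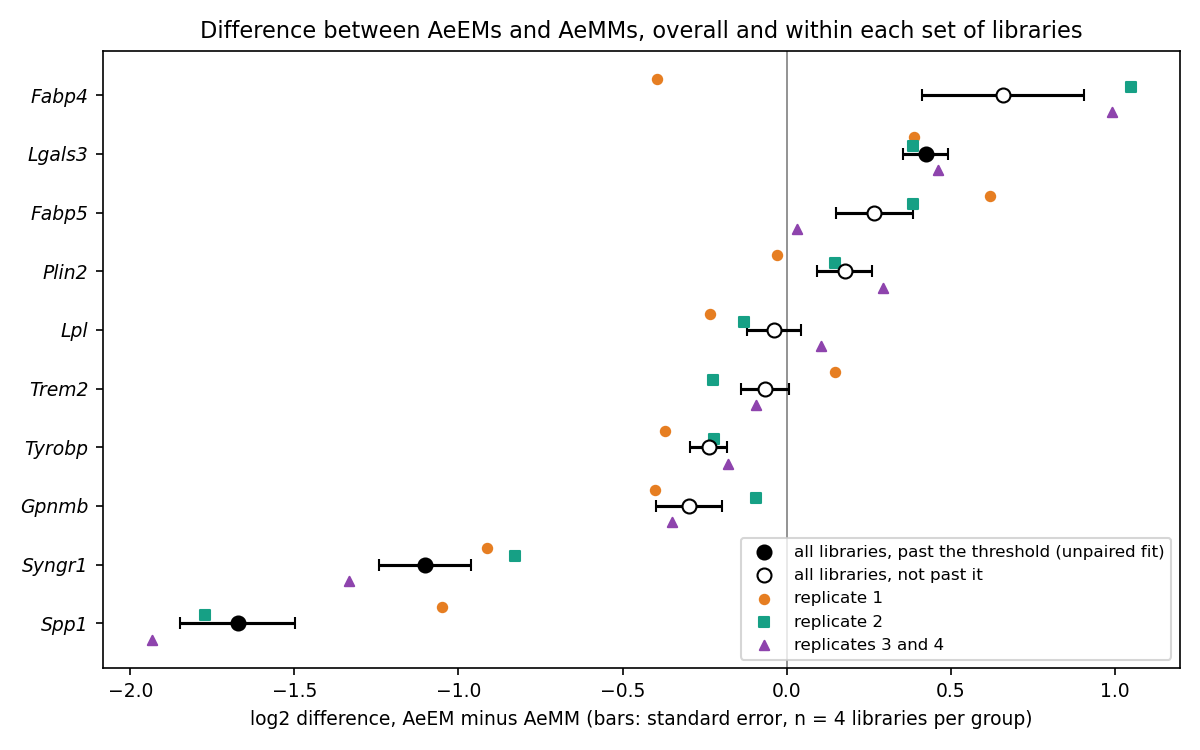
Difference between AeEM and AeMM (horizontal axis, log2 scale, positive values higher in AeEM) for each of the 10 genes. Black circles with bars are the difference over all libraries and its SE, filled where the gene was past the threshold of the unpaired fit, and colored symbols are the differences within replicate 1, replicate 2 and replicates 3 and 4. The sign was the same in all 3 sets for 6 genes (Spp1, Syngr1, Gpnmb, Tyrobp, Lgals3 and Fabp5) and not for Trem2, Fabp4, Lpl and Plin2.

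Further genes of the lipid-associated macrophage program gave a mixed picture. Of 18 listed genes, 16 were tested, 1 rose and 1 fell in AeEM, 14 did not pass, and the median difference was 0.05. Itgax, which encodes CD11c, was at 2.81, 2.7, 2.27 and 2.90 in AeEM and 1.56, 1.59, 1.79 and 1.56 in AeMM, and it rose by 1.05 ± 0.15 (limma adjusted p = 0.0109; 0.115 with a term for the 3 sets). Axl, a receptor for the uptake of apoptotic cells, was at 6.37, 6.34, 6.34 and 6.53 in AeEM and 6.82, 6.83, 6.65 and 6.83 in AeMM, and it fell by 0.39 ± 0.07 (adjusted p = 0.0309; 0.271 with the 3 sets). Neither gene overlapped between the groups. The most abundant genes of the list did not pass. Apoe, the apolipoprotein that macrophages secrete, was at 16.46 ± 0.09 and 16.57 ± 0.07 (adjusted p = 0.358), and Ctsd, the lysosomal protease cathepsin D, at 11.51 ± 0.12 and 11.26 ± 0.11 (adjusted p = 0.125).

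Among the transcription factors known for lipid and lysosomal genes, 1 of 14 tested passed, lower in AeEM, out of 18 listed. Bhlhe41, a repressor that works beside BHLHE40 in tissue macrophages, was at 4.0, 3.95, 4.19 and 3.96 in AeEM and 4.85, 4.86, 4.63 and 4.79 in AeMM, and it fell by 0.76 ± 0.09 (limma adjusted p = 0.00441; 0.0712 with a term for the 3 sets). Cebpb was at 7.59 ± 0.20 and 8.06 ± 0.17 (adjusted p = 0.0761), and Cebpa at 7.21 ± 0.22 and 7.16 ± 0.23 (adjusted p = 0.891). All 6 targets of LXR, the nuclear receptor that senses cholesterol derivatives, were tested and 0 passed (2 at an unadjusted p), with Abca1, the cholesterol exporter, at 4.42 ± 0.08 and 4.76 ± 0.20 (adjusted p = 0.148) and Mylip at 3.86 ± 0.15 and 4.18 ± 0.19 (adjusted p = 0.197). Over all 10 lists, which hold 126 genes, 80 were tested and 6 passed (1 higher and 5 lower, 7.5% of those tested), beside 2.41% of all genes. The lists were drawn up with earlier results of these data known, so no excess is read from this share. Once the 3 sets were fitted too, 0 of these 80 passed and 11 had an unadjusted p under 0.05. Treml2 was lost when any library but AeMM replicate 3 was left out and Axl when any but AeEM replicate 4 or AeMM replicate 3 was, which left between 4 and 7 genes past the threshold.

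**Figure D3:**
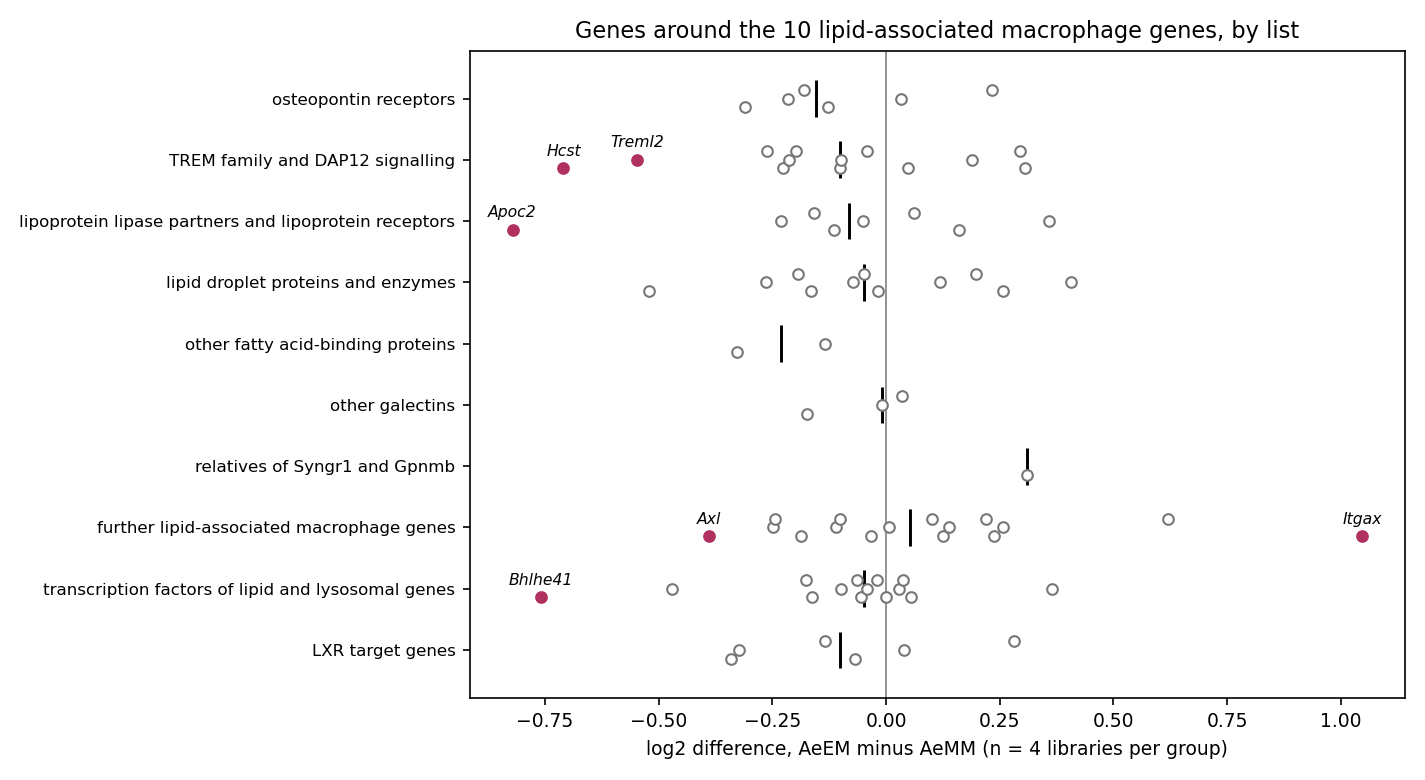
Differences between AeEM and AeMM (horizontal axis, log2 scale, positive values higher in AeEM) of the tested genes in 10 lists drawn up around the panel, a row for each list. Circles are genes, filled and named where they passed the unpaired fit, and vertical bars are the list medians, which lie between -0.23 and 0.31. Of the 6 named genes, Itgax lies to the right of 0 at 1.05 and the other 5 lie to the left, between -0.82 and -0.39.

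The markers that define macrophages were present in every library. Adgre1, Csf1r, Cd68, Itgam, Mertk, Fcgr1, Lyz2 and C1qa summed to 75229 to 83497 TPM in AeEM and 76080 to 89657 TPM in AeMM, and 0 of the 8 passed the test (4 at an unadjusted p under 0.05). Lyz2 alone gave 65106 to 73024 TPM and 66514 to 81312 TPM of this. Adgre1, Csf1r and Mertk were lower and Cd68 and C1qa higher in AeEM without overlap, beside 12.2% of all genes tested. Itgam, Fcgr1 and Lyz2 overlapped. The sort would remove neutrophils by Ly6G and cells without F4/80 and CD11b, but some markers of other cells differed between the groups alongside Spp1, Syngr1 and Lgals3. Of the 8 neutrophil genes, S100a8 was the only one tested and fell by 1.03 (limma adjusted p = 0.00437, or 0.0605 with the 3 sets). The list summed to 10.7 to 13.0 TPM in AeEM and 22.3 to 30.6 TPM in AeMM, of which S100a8 alone gave 10.5 to 12.7 TPM and 19.8 to 28.7 TPM. The untested genes in the table all overlapped between the groups. S100a9, Elane, Camp and Mpo (under 0.1 TPM) had lower means in AeEM, and Ltf and Retnlg higher means. Of the 7 T and NK cell genes, Nkg7 was the only one tested and fell by 2.41 (limma adjusted p = 0.0113; 0.0712 with the 3 sets). The sums were 0.369 to 3.86 TPM and 6.48 to 17.6 TPM, of which Nkg7 gave 0.158 to 1.7 TPM and 3.55 to 11.0 TPM. The untested Cd3d, Cd3e, Cd3g, Trac, Klrb1c and Ncr1 (under 0.1 TPM) had lower means in AeEM, all with overlap. Of the 6 dendritic cell genes, 2 were tested. Cd209a rose by 3.65 (limma adjusted p = 0.00294, or 0.0326 with the 3 sets), and Ccr7 did not pass (adjusted p = 0.145) and overlapped. The sums were 37.7 to 102 TPM and 4.29 to 10.9 TPM, of which Cd209a alone gave 36.0 to 96.1 TPM and 1.95 to 8.01 TPM. Among the untested genes, Flt3, Zbtb46 and Xcr1 had higher means in AeEM and Clec9a a lower mean, all with overlap. Of the 6 osteoclast genes, 3 were tested. Acp5 rose by 1.19 (limma adjusted p = 0.0117; 0.077 with the 3 sets), and Ctsk and Mmp9 did not pass (adjusted p = 0.389 and 0.193) and overlapped. The untested Ocstamp (0.334 to 3.17 TPM against 0.121 to 0.276 TPM in AeMM) and Dcstamp (0.116 to 0.412 TPM against 0 to 0.102 TPM) were higher in AeEM without overlap. The sums were 87.6 to 213 TPM and 44.4 to 56.3 TPM. AeEM replicate 4 gave the highest sum, with Acp5 at 140 TPM and Ctsk at 62.7 TPM. Ctsk was as low as 0.130 TPM in AeEM replicate 3. B cell genes summed to 34.3 to 84.6 TPM and 65.2 to 76.3 TPM, hemoglobin and platelet genes to 13731 to 18171 TPM and 9592 to 15499 TPM, and fibroblast and endothelial genes to 0.449 to 1.58 TPM and 0.492 to 1.48 TPM. In the B cell list 0 of 4 tested genes passed (0 at an unadjusted p), in the hemoglobin and platelet list 0 of 7 (3 at an unadjusted p), and in the last list none was tested. In the hemoglobin and platelet list, Pf4 gave 4860 to 5946 TPM and 4917 to 5368 TPM. Hba-a1, Hba-a2, Hbb-bs, Hbb-bt, Alas2 and Pf4 had higher means in AeEM and Ppbp a lower mean. Only Hbb-bt, at 459 to 660 TPM against 239 to 447 TPM, did not overlap between the groups. The part of these other cells in the differences of the panel was not tested.

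Across the 8 libraries, the genes most like Spp1 were sought by Pearson's r among the 3109 genes that averaged 10 TPM or more. The r values are a description, since the libraries share the group difference and the leveling between sets, which makes the libraries of replicates 1 and 2 mirror each other. The 5 most like Spp1 were Lair1 (r = 0.996), Stab1 (0.994), Rsad2 (0.992), Ccl8 (0.991) and Igf1 (0.988). With the group means removed, their r was 0.97, 0.94, 0.95, 0.97 and 0.84. All 5 had lower means in AeEM, from 7.72 against 9.29 in AeMM for the chemokine gene Ccl8 to 5.17 against 5.49 for the growth factor gene Igf1. Within the panel, Spp1 was most like Syngr1 (r = 0.98, and 0.77 with the group means removed). The 5 genes most like Trem2 were Ogfr, Pfdn6, Mapkapk2, Bst2 and Mindy1, with r between 0.95 and 0.96. Those most like Gpnmb were Cstf2t, Slu7, Pdcl3, Sypl and Slc26a2, with r between 0.90 and 0.93. With the group means removed, r was 0.94 to 0.96 for the genes most like Trem2 and 0.69 to 0.80 for those most like Gpnmb. No gene was named for more than 1 of the 3.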

How the data were processed

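Whole-transcriptome profiles of 8 sorted macrophage libraries (4 AeEM and 4 AeMM) were analyzed. The authors prepared Smart-seq2 libraries, trimmed reads with fastp, aligned to mm10 with STAR 2.7.2a and counted with featureCounts of Subread. The deposited values are log2(TPM + 1), and the set means show that they were adjusted between 3 sets of libraries. How TPM, the log and the adjustment were computed, and the annotation used, are not given in the sources used here. No read counts were used, so depth is unknown and no counting interval is given, and the spread of 4 libraries limits the precision.

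AeEM and AeMM were compared with limma 3.58.1 in R 4.3.3 (no pairing; the variance followed a trend with the mean) over 8801 genes averaging 1 TPM or more, at a Benjamini-Hochberg adjusted p under 0.05. Pandas 2.3.3 and numpy 2.4.6 gave the descriptions, and GENCODE M21 the positions. The 10 genes of the panel, the 10 pathway lists, the 10 marker lists and the motifs were chosen with earlier results of these data known.

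Named genes were the panel, every pathway gene past the threshold (up to 4 in each direction per list), the 2 most abundant tested genes of each list and the 5 genes most like Spp1, Trem2 and Gpnmb among those of at least 10 TPM, without Gm and Rik symbols. Marker genes are named beside the results they touch, after their values were seen. Alternatives changed the pseudocount, the filter, the scaling, the trend, the replicate block, the 3 sets and the libraries used.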

Additional observations from a re-analysis of the deposited data

Results flagged for a closer look

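In 12 of 66 groups of 4 libraries, over the 33 panel and pathway genes named in the text, 1 library lay further from the others than Dixon's criterion for the gap as a share of the range allows. For 4 independent values this happens in about 1 of 20 groups. The leveling between sets ties the libraries to each other, so that rate does not hold here. No excess is read from the count or from the replicates in which the values fall. Of the 12 values, 8 belonged to a replicate 3, and 4 came from the 20 groups of the panel.

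In the panel, Lgals3 was at 9.41 in AeEM replicate 4 against 9.28 to 9.30 in the other AeEM libraries, and Lpl at 7.98 in the same library against 7.70 to 7.74. Fabp4 was at 4.14 in AeEM replicate 1 against 4.80 to 4.89 in the others. Syngr1 was at 4.10 in AeMM replicate 3 against 3.64 to 3.71.

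In AeEM replicate 3, Cd44 was at 4.67 against 4.47 in each of the other AeEM libraries, Ptpn6 at 6.21 against 5.96 to 5.98 and Fabp7 at 3.94 against 3.31 to 3.35. In AeMM replicate 3, Apoe was at 16.68 against 16.52 to 16.53, Itgax at 1.79 against 1.56 to 1.59, Axl at 6.65 against 6.82 to 6.83 and Mylip at 3.91 against 4.25 to 4.30. In AeMM replicate 4, Cebpb was at 7.81 against 8.11 to 8.17.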

How the results depend on the processing

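Of 180 differences recomputed for the panel under 18 alternatives per gene, 174 moved by less than 1 SD between libraries and 6 by more. The 174 include alternatives that cannot move a difference. These are the changes of filter, the fit without the trend, the replicate block and the 3 sets as a term, which alter only the errors or the genes tested. The sign turned only for Lpl over replicates 3 and 4 alone (0.11). Out of 19 settings, Spp1 was past the threshold in 18, Syngr1 in 16, Lgals3 in 11, Tyrobp in 2 (quantile scaling, and without AeEM replicate 3) and the other 6 genes in 0.

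The number of all genes past the threshold was 212, and 136 without the mean-variance trend, 14 with the 3 sets as a term, 5 with a replicate block and 0 over replicates 3 and 4 alone (566 at an unadjusted limma p under 0.05). Leaving out 1 library gave 73 to 203 genes, and the count fell by over 1.5 times without AeEM replicate 1 (73), AeEM replicate 2 (77), AeMM replicate 1 (77), AeMM replicate 2 (78) or AeMM replicate 4 (131). In the panel, 3 genes were past the threshold, 1 (Spp1) with the 3 sets or the replicate block and 0 over replicates 3 and 4 alone (4 at an unadjusted p), with 2 to 4 when a library was left out. Of the pathway genes, 6 passed, 0 with the 3 sets (11 at an unadjusted p), 0 with the replicate block (14) and 0 over replicates 3 and 4 alone (7), with 4 to 7 when a library was left out. Fewer libraries entered the fits that left some out. The 3 sets or the replicate block as a term left the differences unchanged, so only errors and p-values changed in those fits. The cause of the other changes was not tested.

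Libraries with the same number were not taken as paired. Their deviations from the group means correlated at -0.992, -0.999, -0.20 and -0.13 for replicates 1 to 4, and the adjustment between sets forces the values of replicates 1 and 2, so this check is void. The unknown depth limits what can be said of low genes such as Syngr1.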
